A study of Mus musculus with 19 samples.

Results

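Lines expanded from picked GFP-positive colonies were compared with GFP-positive cells taken from AICAR culture. The libraries were chosen by their titles: 8 colony lines, numbered 1, 3, 4, 5, 6, 7, 9 and 10, and 3 libraries of AICAR GFP-positive cells, 1 without a number and 2 numbered 1 and 2. Together they are 11 of the 19 libraries of the series. All come from Rex1 GFPd2 mouse embryonic stem (ES) cells, which report the naive-state gene Zfp42 (Rex1) through a destabilised green fluorescent protein (GFP). For both groups the cells were differentiated for 2 days in serum medium, sorted for cells that lacked both GFP and SSEA1 (a carbohydrate marker of the ES cell surface), and kept in that medium with AICAR until day 15. AICAR enters cells as a nucleoside and, once phosphorylated, mimics AMP and so activates the energy-sensing kinase AMPK. The AICAR GFP-positive libraries are labelled positive for GFP at that time. Their sorting field reads as unsorted, so how those cells were set apart is not stated. The colony lines were taken out of AICAR and serum medium and passaged on gelatin in medium with serum replacement, LIF and inhibitors of GSK3 and MEK. The labels do not tie a line to 1 of the sequenced AICAR cultures, nor say whether the AICAR libraries came from separate cultures. The dose of AICAR and the number of passages are not given. Medium, AICAR, time in culture and growth from 1 picked colony all differ between the groups and cannot be told apart.

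The naive state of ES cells resembles the epiblast before implantation and is held by LIF, which signals through STAT3, together with block of MEK-ERK signalling and of GSK3, a kinase that destroys the Wnt effector beta-catenin. Cells that leave it pass through a formative state, in which naive factors fade and epiblast factors such as Otx2 and Fgf5 appear. Extraembryonic endoderm, the other lineage that ES cell cultures can form at this stage, lines the yolk sac and takes up nutrients through receptors such as cubilin.

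Reads in genes numbered 5937370 to 7370560 in the colony lines, 8262357 in the unnumbered AICAR library, 12751260 in AICAR library 1 and 14233421 in AICAR library 2. Libraries 1 and 2 were sequenced in another project than the other 9, so values are given by library for the genes shown by sample, in the order unnumbered, 1 and 2. All 168 named genes that passed over all 3 libraries had the same sign against the unnumbered library alone. This is no check on the sequencing project. Genes named by fold or level had to have that sign and no overlap between the groups. The unnumbered library is also among the 3. Of the 168, Arntl, Fgf4, Il17rd, Jag1, Prkaa1, Smad1, Socs3 and T did not pass against that library alone. Pearson correlations of log2 CPM (CPM, read counts scaled to a common library size) were 0.976 to 0.9915 among colony lines, 0.9526 to 0.9859 among AICAR libraries and 0.889 to 0.9215 between the groups, each across genes. Of 12225 genes with enough reads to test, 3369 (27.6%) were higher in colony lines and 3704 (30.3%) lower at an adjusted p under 0.05 (edgeR quasi-likelihood test). Beyond 2-fold there were 868 (7.1%) higher and 1565 (12.8%) lower. Every colony line lay above every AICAR library for 2542 genes (20.8%) and below for 2776 (22.7%). Against the unnumbered library alone, 2594 genes (21.2%) were higher and 2883 (23.6%) lower; against libraries 1 and 2 there were 3385 (27.7%) and 3617 (29.6%). The unnumbered library itself was higher than libraries 1 and 2 in 643 genes (5.26%) and lower in 267 (2.18%). The median log2 fold change of all genes was -0.03. With library totals in place of the scaling factors it was -0.18, and called genes were then 2350 higher and 4853 lower, so the direction of a small difference depends on the scaling. In lists with members near 0 in 1 group, those members passed the read minimum through the other group, so counts over tested members are descriptions there.

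Zfp42, the reporter gene itself, did not separate the groups. It stood at 360.0 to 626 CPM with a median of 560.3 in the colony lines and at 422, 639.7 and 578 CPM in the unnumbered library and libraries 1 and 2 (log2 fold change 0.01 ± 0.15 SE, adjusted p = 0.974). The lowest colony value was that of line 7, and the AICAR values lay within the range of the lines or just above it. Pou5f1 (Oct4), a central pluripotency factor, was slightly higher in colony lines at 1449 to 1603 CPM with a median of 1509.7 against 1016, 1322 and 1286 CPM (log2 fold change 0.33 ± 0.08 SE, adjusted p = 0.00227). The colonies were picked as GFP positive, the AICAR libraries are labelled GFP positive, and GFP reports Zfp42. The choice of cells thus bears on Zfp42, and its similar level is not an independent result. The difference in Pou5f1 was smaller than those in Nanog, Sox2 and Klf4. Nanog, a naive-state factor, was more than 2-fold higher at 449.7 to 564 CPM with a median of 502 against 188, 249 and 238 CPM (log2 fold change 1.16 ± 0.10 SE, adjusted p = 7.17e-07), without overlap. Sox2, the partner of Pou5f1, went the other way, with 265 to 359 CPM with a median of 305 against 459, 602 and 516 CPM (log2 fold change -0.76 ± 0.09 SE, adjusted p = 1.1e-05). Klf4 was also lower, at 123 to 181 CPM with a median of 146 against 277, 322 and 271 CPM (log2 fold change -0.96 ± 0.09 SE, adjusted p = 1.57e-06). The separation of Sox2 and Klf4 was complete, with every line below every AICAR library. Esrrb, another naive factor, passed the test against the unnumbered library (log2 fold change 0.57, adjusted p = 0.00227) and not over all 3 libraries (0.22, adjusted p = 0.096).

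Of 17 naive pluripotency genes tested, 13 were higher in colony lines and 1, Klf4, was lower, with a median log2 fold change of 0.42; with library totals in place of the scaling factors 8 were higher. Their summed level was 4588 to 4817 CPM in the lines and 2844, 4133 and 3706 CPM in the unnumbered library and libraries 1 and 2. Tfcp2l1, a self-renewal factor downstream of LIF, was raised by 1.55 ± 0.20 SE on the log2 scale (adjusted p = 1.55e-05). Klf5 and Nr5a2 rose by 1.03 and 1.09. Of 17 general pluripotency genes, 10 were higher (6 with library totals) and 5 lower. The lower share, 29.4%, was near that over all genes, 30.3%. Gdf3, a growth factor of the Nodal class, rose by 1.37, whereas Utf1 (-1.0) and Foxd3 (-1.28) were lower.

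The formative and primed epiblast genes were mostly low in the lines, with 12 of 14 tested (17 listed) lower in colony lines, 1 higher and a median of -2.11. Otx2, a transcription factor of the formative epiblast, was 1.15 to 2.89 CPM with a median of 2.13 in the lines against 90, 102 and 114 CPM (log2 fold change -5.6 ± 0.14 SE, adjusted p = 1.46e-11). All 3 AICAR libraries were close together and far above every line. Fgf5, a growth factor of the postimplantation epiblast, stood at 0 to 1.36 CPM with a median of 0.36 against 12.5, 11 and 12 CPM (log2 fold change -4.73 ± 0.38 SE, adjusted p = 2.97e-07). The levels of Fgf5 and Otx2 in the unnumbered library did not differ detectably from those in libraries 1 and 2 (adjusted p = 0.914 and 0.441). Tcf15, a transcription factor of cells primed to leave the naive state, was among the most abundant genes per length to fall, with a mean of 18.1 RPKM (reads scaled to gene length and library size) in the lines against 258 in AICAR cells. By CPM it was 6.78 to 13.2 CPM with a median of 11.3 against 84.4, 182 and 153 CPM (log2 fold change -3.68 ± 0.19 SE, adjusted p = 7.42e-09). Fgf15 (-5.0), Pou3f1 (-4.71), Sall2 (-2.17), Sox3 (-1.36) and Lef1 (-2.15; -1.1 without the unnumbered library) were lower as well, Pou3f1 at -4.05 without library 2. The exception was Lefty2, an inhibitor of Nodal, at 165 to 259 CPM with a median of 199.5 against 54, 56.9 and 55.8 CPM (log2 fold change 1.94 ± 0.14 SE, adjusted p = 9.6e-08).

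Extraembryonic endoderm genes were also low in colony lines, and the AICAR libraries themselves stood far apart in them. Of 14 tested genes, 13 were lower and 0 higher, with a median of -4.4 over all AICAR libraries, -5.73 against the unnumbered library and -2.89 against libraries 1 and 2. The 18 listed genes summed to 31.4 to 65.6 CPM in the lines, 2013 CPM in the unnumbered library, 393 in library 1 and 381 in library 2, and Afp and Ttr had 0 reads in the lines. Cubn, the uptake receptor cubilin, had the lowest fold change of the genes named by size: 0.152 to 2.58 CPM with a median of 0.809 in the lines against 619, 100.4 and 91.5 CPM (log2 fold change -8.15 ± 0.61 SE, adjusted p = 1.6e-07). Its partner Amn, which anchors cubilin in the membrane, was 0 to 0.437 CPM with a median of 0.143 against 56.6, 7.7 and 5.96 CPM (log2 fold change -7.14 ± 0.76 SE, adjusted p = 3.61e-06). Cubn was higher in the unnumbered library than in libraries 1 and 2 by 2.69 on the log2 scale (adjusted p = 6.13e-05), yet those 2 libraries also lay far above every line. Lrp2 (megalin), the receptor that takes up cubilin, was 16.5 to 33.5 CPM with a median of 25.2 against 659, 213 and 198 CPM (log2 fold change -3.86 ± 0.29 SE, adjusted p = 1.87e-07). The endoderm transcription factors Gata6 (-4.73), Gata4 (-4.22) and Sox17 (-2.92) were lower in the lines, Sox17 no longer so without the unnumbered library (-1.01, adjusted p = 0.23), and so was the endocytic adaptor Dab2 (-5.56). Hnf4a was the member that did not pass (0.03, adjusted p = 0.947). Without the unnumbered library the log2 fold change was -6.66 for Cubn, -5.37 for Amn, -3.07 for Lrp2, -2.96 for Gata6, -2.04 for Gata4 and -3.63 for Dab2. Without line 5 it was -5.62 for Gata6, -3.75 for Sox17 and -6.16 for Dab2. In bulk RNA, fewer endoderm cells and less endoderm RNA per cell cannot be told apart.

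**Figure D1:**
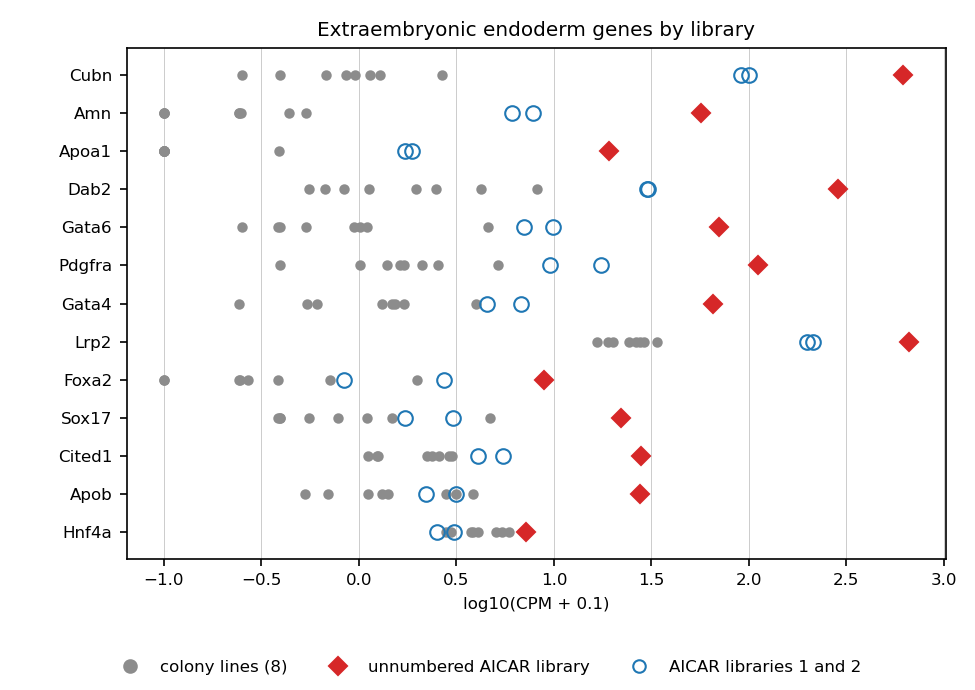
Levels of the extraembryonic endoderm genes that are reported, in log10 of CPM plus 0.1 on the horizontal axis, with 1 row per gene. Grey points are the 8 colony lines, the diamond is the unnumbered AICAR library and the open circles are AICAR libraries 1 and 2; for Cubn the diamond lies at 619 CPM and both circles near 100, above all lines.

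Some other genes with very large falls were likewise highest in the unnumbered library. Aqp8, a water channel, was 0.148 to 0.857 CPM with a median of 0.433 in the lines against 141, 10.7 and 11.3 CPM (log2 fold change -6.86 ± 0.78 SE, adjusted p = 5.86e-06). Pth1r, the receptor of parathyroid hormone, was 0 to 2.16 CPM with a median of 0.297 against 95.3, 3.41 and 8.45 CPM (log2 fold change -5.68 ± 0.89 SE, adjusted p = 9.88e-05). The unnumbered library lay above libraries 1 and 2 by 3.68 and 3.99 on the log2 scale. Nostrin, Ctsh (a lysosomal protease), Sox7 (a transcription factor) and Srgn (a secretory proteoglycan) fell by 6.58, 5.8, 5.79 and 5.41. These falls were smaller without the unnumbered library, at -4.57 for Aqp8, -3.12 for Pth1r, -4.85 for Nostrin, -3.68 for Ctsh, -3.25 for Sox7 and -3.04 for Srgn. Nostrin stood at -7.23 without line 4 and Ctsh at -6.53 without line 5. In the basement membrane list the laminin chains Lamb1 (-4.29) and Lama1 (-3.25) and the collagen chains Col4a1 (-3.56) and Col4a2 (-3.23) were lower, with Lamb1 at 1995, 122 and 235 CPM in the AICAR libraries and a mean of 39.9 in the lines. The laminin chains Lama3 (3.82 ± 0.43 SE), Lamb2 (1.84 ± 0.15) and Lama5 (0.97) and the proteoglycan Agrn (0.74) were higher. Lama3 rose from 1.21, 1.04 and 1.97 CPM to 9.41 to 35.6 CPM with a median of 17.3, and Lamb2 from 33.1, 25.4 and 25.1 CPM to 74.6 to 119.9 CPM with a median of 98.8, in both cases without overlap. In all, 5 of 16 were higher and 6 lower, near the shares over all genes. Without the unnumbered library 8 were higher and 2 lower, and Col4a1 (-1.10, adjusted p = 0.392), Col4a2 (-0.96, adjusted p = 0.482) and Lama1 (-0.63, adjusted p = 0.298) no longer passed, and Lamb1 was at -2.15. Without line 5 Col4a1 was at -4.79 and Col4a2 at -4.47. The list's median was 0.31 against libraries 1 and 2 alone and -0.54 against the unnumbered library.

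Some of the largest rises were in Zscan4 copies, joined entries of predicted genes and Cdx1, given below. Others were in genes outside the usual marker lists. Aox3, an aldehyde oxidase, stood at 20.9 to 47.3 CPM with a median of 24.4 in the lines against 0.331, 0 and 0.459 CPM (log2 fold change 6.7 ± 0.51 SE, adjusted p = 2.05e-07). Arhgdib, a GTPase regulator known from blood cells, was 23.2 to 43.5 CPM with a median of 34 against 1.1, 0.0741 and 0.197 CPM (log2 fold change 6.47 ± 0.41 SE, adjusted p = 3.98e-08). Pmel, a structural protein of pigment granules, was 45.3 to 73.2 CPM with a median of 60.7 against 1.54, 0.667 and 1.11 CPM (log2 fold change 5.84 ± 0.24 SE, adjusted p = 1.01e-09). For these genes every AICAR library held at most about 1.5 CPM while no line was below 20, and none of the 3 differed detectably between the unnumbered library and the others (adjusted p = 0.915, 0.0747 and 0.469). Calcoco2, a receptor of selective autophagy, was 35 to 131 CPM with a median of 84.8 against 0.771, 1.04 and 2.29 CPM (log2 fold change 5.82 ± 0.49 SE, adjusted p = 4.48e-07). Ido2, an enzyme of tryptophan breakdown, was 4.07 to 14.1 CPM with a median of 9.81 against 0.11, 0 and 0.393 CPM (log2 fold change 5.61 ± 0.53 SE, adjusted p = 1.34e-06). Calcoco2 varied almost 4-fold between lines, and its lowest line still exceeded the highest AICAR library more than 10-fold. Leaving out 1 AICAR library moved these values: Arhgdib was at 7.82 without the unnumbered library, Aox3 at 6.09 without library 1 and 7.59 without library 2, Ido2 at 5.02 and 7.31, and Calcoco2 at 6.46 without library 2.

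**Figure D2:**
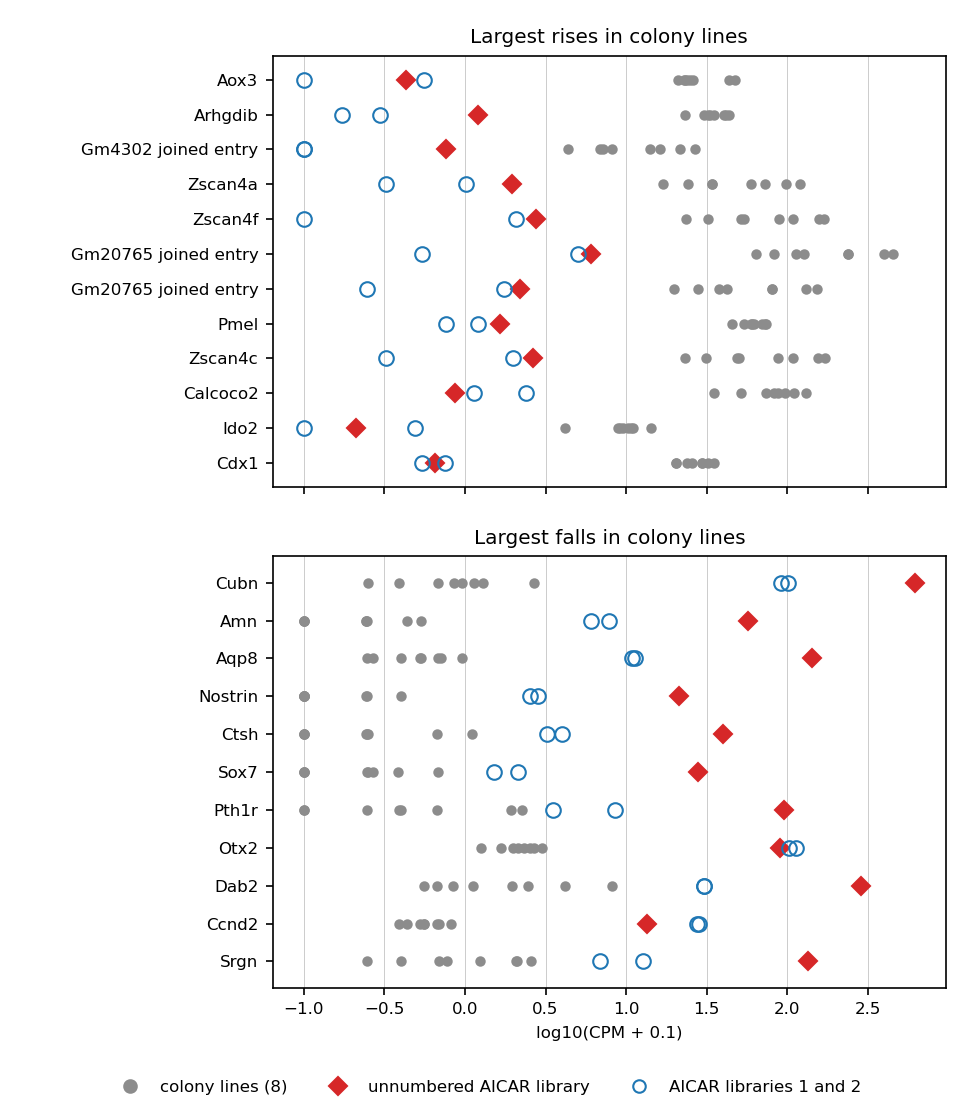
The largest rises and the largest falls by the naming rule, as far as reported, in log10 of CPM plus 0.1, with 1 row per gene and the colony lines in grey. The diamond is the unnumbered AICAR library and the open circles are AICAR libraries 1 and 2. They lie left of all grey points in the upper block and right of all of them in the lower block. The naming rule required this separation, so it is not a result.

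Genes of the 2-cell-like state, a rare ES cell state that expresses Zscan4 and other genes of the early embryo, are 18 in the list, of which 10 had enough reads to test. All that were tested passed as higher, which says nothing of the list, since they reached the read minimum through the lines, where they are high. Zscan4f was 23.5 to 169 CPM with a median of 71.5 in the lines against 2.64, 0 and 1.97 CPM (log2 fold change 5.87 ± 0.86 SE, adjusted p = 5.74e-05; 5.25 without library 1). Zscan4c was 23.2 to 171 CPM with a median of 68.4 against 2.53, 0.222 and 1.9 CPM (log2 fold change 5.83 ± 0.84 SE, adjusted p = 5.1e-05). The lines differed 7-fold among themselves, from 23.5 CPM in the lowest to 169 in the highest for Zscan4f, and all of them lay above all AICAR libraries. Because Zscan4 copies barely differ in sequence, their reads may be shared between them, and the copies do not count as independent genes. Entries that join Gm4302, Gm4303, Gm4305 and Gm4307, or Gm20765 with 5 or 6 other predicted genes, rose by 5.85 to 6.20.

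The lines grew with inhibitors of MEK and GSK3 and with LIF, and the AICAR cells in serum medium, so genes known to respond to these pathways were compared. Of 26 genes that ERK induces or that feed back on it, 15 were lower in colony lines and 1, Il17rd, was higher (0.60; not against the unnumbered library, adjusted p = 0.0613), with a median of -0.90. Dusp4, a phosphatase that switches ERK off, was 1.57 to 2.89 CPM with a median of 1.89 against 36.3, 44.6 and 43.4 CPM (log2 fold change -4.3 ± 0.14 SE, adjusted p = 1.45e-10). The cyclin Ccnd1 was 21.9 to 42.5 CPM with a median of 30 against 82.3, 138 and 104 CPM (log2 fold change -1.79 ± 0.17 SE, adjusted p = 1.24e-06). Both were lower in every line than in every AICAR library. The immediate early genes Fos (-2.22; -1.63 without the unnumbered library) and Jun (-2.24) fell, the ETS factor Etv5 by 0.60 and the inhibitor Spred2 by 0.76. Spry2, Etv4 and Spred1 did not pass (0.16, 0.11 and -0.06). Fibroblast growth factor ligands and receptors were lower in 7 of 12 tested and higher in 1. With at least 10 CPM in 3 libraries 2 were lower. The receptor Fgfr2 was 0.583 to 1.86 CPM with a median of 0.933 against 31.3, 11 and 9.3 CPM (log2 fold change -4.05 ± 0.36 SE, adjusted p = 8.03e-07; -3.3 without the unnumbered library), and Fgfr4 fell by 2.41. Fgfr1, which per length had the higher mean of these receptors in the lines (44.4 RPKM against 0.295 for Fgfr2), did not pass (-0.02, adjusted p = 0.903). The ES cell ligand Fgf4, the member that was higher, rose by 0.29, with no call under library totals (0.14, adjusted p = 0.181).

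Wnt target and feedback genes split, with 5 of 14 higher and 7 lower. Cdx1, a homeobox target of Wnt, was 20.2 to 35.2 CPM with a median of 27.6 in the lines against 0.551, 0.444 and 0.655 CPM (log2 fold change 5.57 ± 0.27 SE, adjusted p = 4.28e-09). The repressor Sp5 was 7.29 to 18.3 CPM with a median of 11.9 against 1.65, 0.444 and 0.786 CPM (log2 fold change 3.72 ± 0.35 SE, adjusted p = 1.34e-06). Axin2, the feedback scaffold that limits beta-catenin, rose by 0.74 ± 0.18 SE, and the receptor Tnfrsf19 by 1.3. T (Brachyury) stood at 1.86 to 3.61 CPM with a median of 2.89 against 1.32, 0 and 0.59 CPM (log2 fold change 2.2 ± 0.57 SE, adjusted p = 0.00438); against the unnumbered library alone it did not pass (adjusted p = 0.213), and its log2 fold change was 3.09 without that library and 1.58 without library 1. Lower were the secreted inhibitor Dkk1 (-3.56; -2.46 without the unnumbered library), the Dishevelled inhibitor Nkd2 (-2.44), the effectors Lef1 (-2.15; -1.1 without it) and Tcf7 (-0.57), the inhibitor Notum (-0.86) and Zbed3 (-1.41). Cdx1, Sp5 and Axin2 were thus high and Dkk1, Notum and Lef1 low within the same lines.

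Genes around LIF moved both ways. The receptor Lifr was 33.8 to 65.8 CPM with a median of 48.1 against 177, 149 and 138 CPM (log2 fold change -1.66 ± 0.16 SE, adjusted p = 1.19e-06), and the kinase Jak1 was lower too (-0.34). Stat3 itself was 92.9 to 123 CPM with a median of 105 against 54.9, 38.1 and 32 CPM (log2 fold change 1.36 ± 0.14 SE, adjusted p = 3.57e-06). Of STAT3 target genes, Bcl3 was 40.3 to 60.2 CPM with a median of 52.2 against 10.8, 5.78 and 5.37 CPM (log2 fold change 2.87 ± 0.20 SE, adjusted p = 9.6e-08) and the kinase Pim1 rose by 1.87 ± 0.14 SE. The feedback inhibitor Socs3 was high in the unnumbered library (41.5, 14.8 and 13.1 CPM) and 38.2 to 54.1 CPM with a median of 43.8 in the lines, so its rise of 1.0 was not seen against that library (0.13, adjusted p = 0.559) and was 1.7 without it. Klf4, also in this list, was lower, and Klf5 and Tfcp2l1, also in it, were higher, as given above. In all, 8 of 17 were higher and 5 lower (29.4%, near the share over all genes).

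In the Nodal pathway the ligand Nodal did not pass (-0.13, adjusted p = 0.429), but was higher in the lines than in the unnumbered library (0.41, adjusted p = 0.0378) and lower than in libraries 1 and 2 (-0.34, adjusted p = 0.0117). Its coreceptor Tdgf1 and the partner of Smad proteins Foxh1 were higher (0.36 and 1.01), Tdgf1 not with library totals (0.21, adjusted p = 0.0886), and the receptor Acvr2b (-1.0) and the Smad antagonist Skil (-1.75) were lower. The list had 4 of 14 higher (28.6%, near the share over all genes) and 8 lower. In the BMP pathway the ligand Bmp4 (1.04), the targets Id3 (1.72) and Smad6 (2.11) were higher. The receptors Bmpr2 (-1.45) and Bmpr1a (-0.63), the signal carriers Smad1 (-1.06; not passing against the unnumbered library, adjusted p = 0.0589) and Smad5 (-1.05) and the target Id2 (-3.41) were lower. Id3 was 20.2 to 40.3 CPM with a median of 28.7 against 8.15, 8.74 and 10.6 CPM. Id2 was 0.437 to 1.04 CPM with a median of 0.744 against 12.6, 5.7 and 6.22 CPM. Neither pair of groups overlapped. Hedgehog genes were lower in 7 of 8 tested and higher in 0. Gli1, the effector that the pathway itself induces, was 5.48 to 9.95 CPM with a median of 8.89 against 32.2, 50.5 and 41.4 CPM (log2 fold change -2.27 ± 0.15 SE, adjusted p = 6.4e-08), and the receptor Ptch1, another induced gene, fell by 1.69. Notch genes were lower in 6 of 11, led by the ligand Dll1 at 0.143 to 0.874 CPM with a median of 0.362 against 12.9, 11.6 and 10.5 CPM (log2 fold change -4.77 ± 0.31 SE, adjusted p = 5.8e-08), with 1, the ligand Jag1, higher (0.63, adjusted p = 0.0206). Jag1 no longer passed without AICAR library 1 or without library 2 (adjusted p = 0.0974 and 0.0656), and without library 2 only 3 Notch genes were lower.

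**Figure D3:**
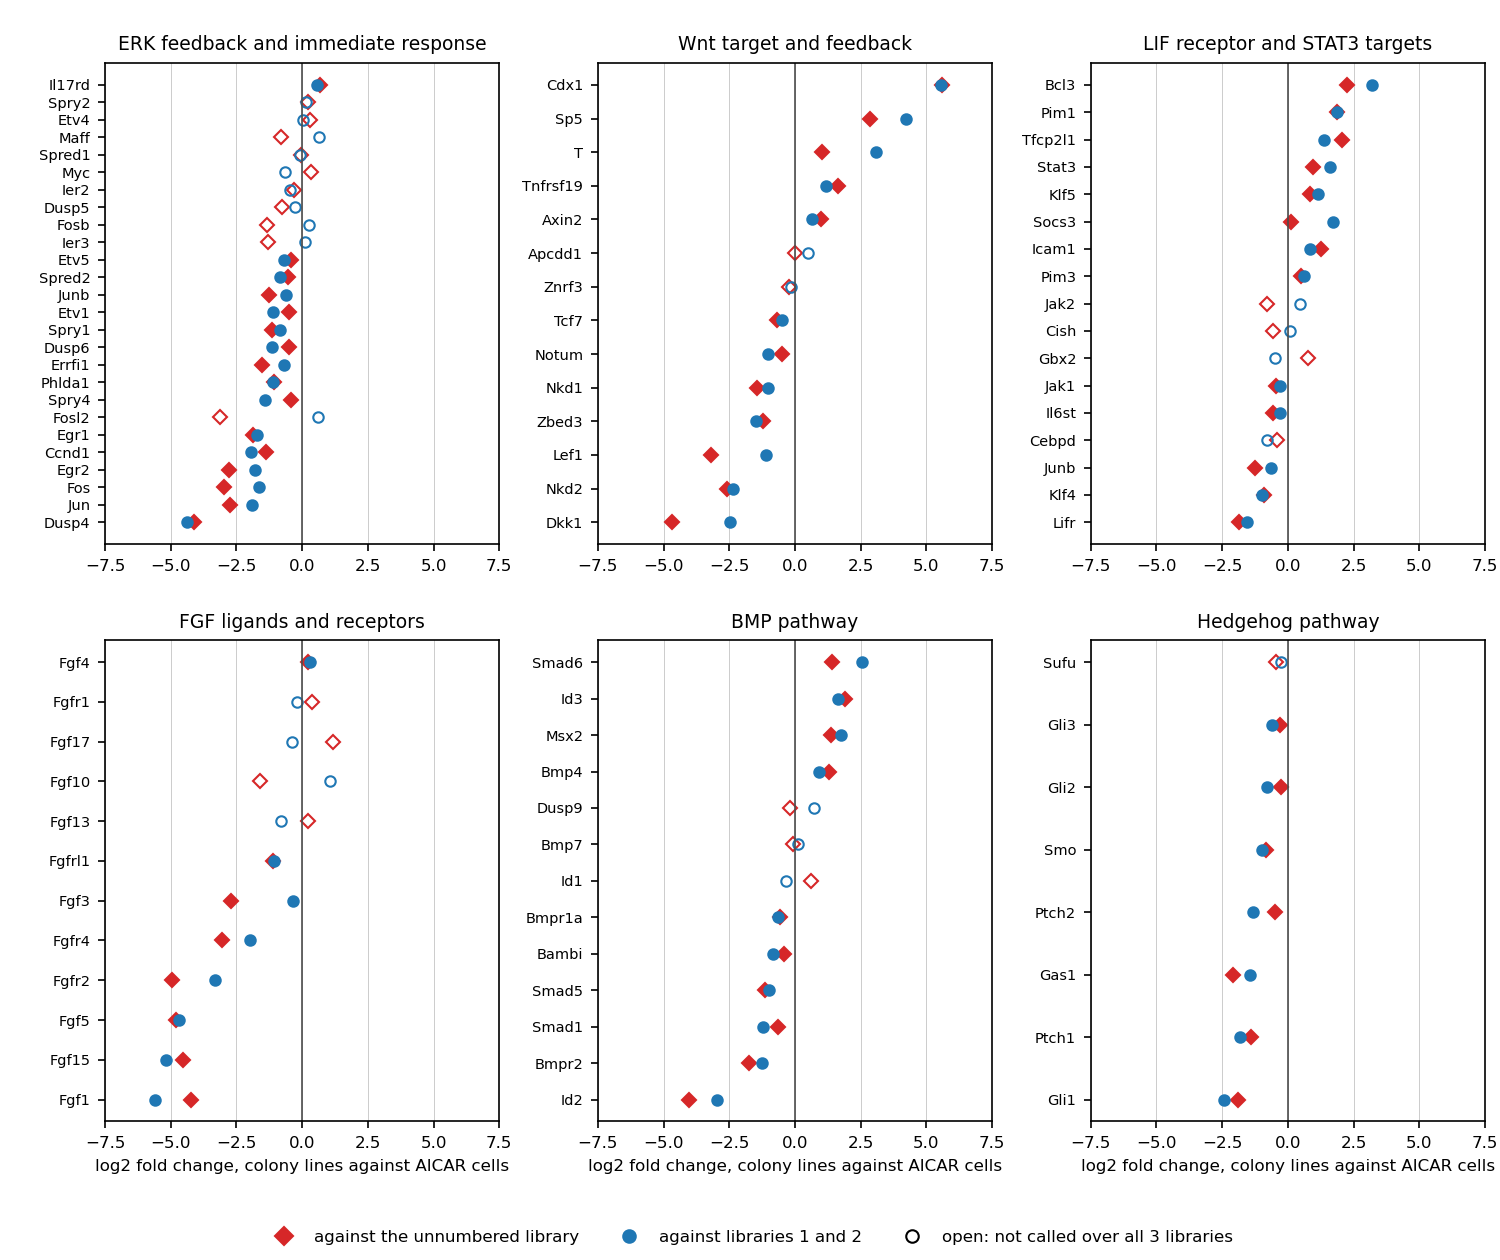
Log2 fold change of colony lines against the unnumbered AICAR library (diamonds) and against AICAR libraries 1 and 2 (circles) for the tested genes of 6 signalling lists, with 1 row per gene and filled marks where the difference over all 3 libraries passed the test. Cdx1 lies near 5.6 in both contrasts and Dusp4 near -4; Socs3 lies near 0 in the first only.

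The enzymes that write, copy and remove DNA methylation did not move together. The de novo enzyme Dnmt3a was 46.9 to 72.5 CPM with a median of 59.1 in the lines against 198, 258 and 294 CPM (log2 fold change -2.08 ± 0.12 SE, adjusted p = 2.09e-08), and Dnmt3b fell by 0.67 ± 0.14 SE. Their cofactor Dnmt3l, which has no catalytic activity of its own, was higher at 279 to 362 CPM with a median of 335 against 116, 34.6 and 94.2 CPM (log2 fold change 2.01 ± 0.26 SE, adjusted p = 2.27e-05). Uhrf1, which guides the maintenance enzyme to newly copied DNA, was 806 to 935 CPM with a median of 867 against 387, 479 and 430.2 CPM (log2 fold change 1.01 ± 0.07 SE, adjusted p = 1.48e-07), while that enzyme, Dnmt1, did not pass over all 3 libraries (0.16) but did against the unnumbered library (0.36, adjusted p = 0.035). Of the dioxygenases that remove the mark, Tet1 (-1.1) and Tet3 (-1.61) were lower and Tet2 did not pass over all 3 libraries (-0.27); it was 0.58 against the unnumbered library (adjusted p = 0.0656) and -0.56 without that library (adjusted p = 0.00901). The Polycomb list had 8 of 28 higher and 8 lower, near the shares over all genes. The core subunit Eed was 365 to 424 CPM with a median of 399.6 against 164, 159 and 199 CPM (log2 fold change 1.2 ± 0.08 SE, adjusted p = 9.27e-08) and the methyltransferase Ezh2 rose by 0.62. Jarid2, an accessory subunit that recruits the same complex, was 281 to 450.5 CPM with a median of 335 against 729, 856 and 1034 CPM (log2 fold change -1.31 ± 0.12 SE, adjusted p = 1.04e-06). Phc1, of the other Polycomb complex, was 399 to 491 CPM with a median of 439 against 858, 1069.7 and 942 CPM (log2 fold change -1.11 ± 0.08 SE, adjusted p = 1.14e-07).

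Germline genes were lower in 14 of 23 tested and higher in 3, with a median of -0.78. With at least 10 CPM in 3 libraries 6 were lower and 0 higher. Dazl, an RNA-binding protein of germ cells, was 9.6 to 21 CPM with a median of 11.4 against 40, 51.8 and 72 CPM (log2 fold change -2.11 ± 0.20 SE, adjusted p = 1.22e-06), and line 7 was the highest line. Ddx4, a helicase of germ cells, was 3.71 to 7.65 CPM with a median of 5.7 against 20.5, 19.5 and 18.6 CPM (log2 fold change -1.83 ± 0.16 SE, adjusted p = 7.64e-07). Mov10l1, a helicase needed to make piRNAs, was 3.64 to 7.74 CPM with a median of 5.02 against 27.7, 23.9 and 31.9 CPM (log2 fold change -2.4 ± 0.18 SE, adjusted p = 1.46e-07). Prdm1, a factor of germ cell specification, was higher (2.31). The promoters of many germline genes carry an E-box bound by repressors of the MGA class, and CACGTG, the same on both strands, was found in 15 of 27 promoter windows of the listed genes (55.6%) and in 7.15% of all 32851 RefSeq promoter windows of 300 bases. Those of Ddx4 (chr13:112652261-112652560, minus strand) and Mov10l1 (chr15:88982744-88983043, plus strand), both RefSeq, GRCm38.p6, are shown. Both were picked because the gene fell and its window holds a match. Dazl fell as well and is not among the listed genes with a match. The windows run 5′ to 3′ from 250 bases before the start to 50 after it, with the match in capitals.
Ddx4: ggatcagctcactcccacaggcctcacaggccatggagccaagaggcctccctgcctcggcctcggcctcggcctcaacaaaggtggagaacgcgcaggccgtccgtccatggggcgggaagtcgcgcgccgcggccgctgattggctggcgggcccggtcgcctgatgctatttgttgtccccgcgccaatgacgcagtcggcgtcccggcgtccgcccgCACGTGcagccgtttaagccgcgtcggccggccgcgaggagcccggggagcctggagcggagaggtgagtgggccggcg
Mov10l1: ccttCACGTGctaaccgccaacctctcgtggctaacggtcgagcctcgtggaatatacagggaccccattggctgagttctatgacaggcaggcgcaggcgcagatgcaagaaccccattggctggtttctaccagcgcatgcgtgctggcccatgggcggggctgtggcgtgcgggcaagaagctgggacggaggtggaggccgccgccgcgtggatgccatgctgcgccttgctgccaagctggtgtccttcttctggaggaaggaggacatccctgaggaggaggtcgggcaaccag
The match lies within the 30 bases before the start in Ddx4 and at the upstream end of the window in Mov10l1. A match is a description of the letters, not a shown binding site.

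Imprinted genes were lower in 13 of 28 tested and higher in 2 (5 higher without the unnumbered library). H19, counted jointly with Mir675, was 4.52 to 42.7 CPM with a median of 10.5 in the lines against 801, 74.6 and 48.7 CPM (log2 fold change -4.49 ± 0.70 SE, adjusted p = 9.87e-05), high in the unnumbered library and at -2.17 without it. Magel2 was 0 to 1.02 CPM with a median of 0.219 against 6.28, 5.85 and 10.5 CPM (log2 fold change -4.59 ± 0.43 SE, adjusted p = 1.09e-06), with similar levels in all 3 AICAR libraries. Peg10 (-2.01), Ndn (-1.79) and the growth inhibitor Cdkn1c (-2.83) were lower as well. Plagl1, a zinc finger factor expressed from the paternal allele, went against the rest of the list at 41 to 82.6 CPM with a median of 69.5 against 13.9, 1.93 and 2.69 CPM (log2 fold change 3.52 ± 0.47 SE, adjusted p = 2.7e-05). Without the unnumbered library the log2 fold change was 4.79 for Plagl1, -1.38 for Peg10 and -2.18 for Cdkn1c.

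Among the most abundant genes per length, those that were more than 2-fold lower in colony lines were led by the metallothioneins, small proteins that bind zinc and copper. Mt2 averaged 155 RPKM in the lines and 1123 in AICAR cells, and Mt1 131 and 765. In CPM, Mt2 was 47.7 to 91.8 CPM with a median of 63.7 against 356, 462 and 436 CPM (log2 fold change -2.7 ± 0.15 SE, adjusted p = 1.85e-08). Mt1 was 34.4 to 69.4 CPM with a median of 56 against 266, 321 and 251 CPM (log2 fold change -2.39 ± 0.15 SE, adjusted p = 3.24e-08). Every AICAR library was more than 3 times above every line, with no overlap and no detectable difference between the unnumbered library and the others (adjusted p = 0.517 and 0.859). The zinc exporter Slc30a1, counted jointly with 1700034H15Rik, fell by 1.66. Iron genes went the other way in part: the transferrin receptor Tfrc was 563 to 667 CPM with a median of 634 against 241, 218 and 242 CPM (log2 fold change 1.41 ± 0.07 SE, adjusted p = 1.06e-08). The ferritin chain Ftl1 was 2702 to 4415 CPM with a median of 3588 against 1653, 1799 and 1669.8 CPM (log2 fold change 1.06 ± 0.13 SE, adjusted p = 1.14e-05), while the iron exporter Slc40a1 was lower (-3.53; -2.43 without the unnumbered library). Metallothionein genes are switched on by zinc through metal response elements. Their promoter windows (RefSeq, GRCm38.p6, plus strand; Mt1 chr8:94178839-94179138, Mt2 chr8:94172368-94172667) are shown with matches to TGCNCNC on either strand in capitals.
Mt1: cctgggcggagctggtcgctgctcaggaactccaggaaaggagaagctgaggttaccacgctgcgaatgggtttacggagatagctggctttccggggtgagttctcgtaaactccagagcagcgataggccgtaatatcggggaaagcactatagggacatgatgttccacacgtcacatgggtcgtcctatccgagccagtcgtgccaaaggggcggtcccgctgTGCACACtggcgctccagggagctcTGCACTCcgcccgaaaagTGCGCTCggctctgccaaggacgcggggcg
Mt2: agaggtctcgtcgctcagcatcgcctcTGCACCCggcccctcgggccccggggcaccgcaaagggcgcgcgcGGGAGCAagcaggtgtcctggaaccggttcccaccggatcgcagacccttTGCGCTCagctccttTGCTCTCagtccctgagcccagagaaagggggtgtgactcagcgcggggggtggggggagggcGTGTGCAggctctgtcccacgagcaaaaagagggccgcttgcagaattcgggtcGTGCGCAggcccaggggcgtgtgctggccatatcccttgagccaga
Mt1 holds 3 and Mt2 6 such matches. A match is common, since 51.0% of all windows hold at least 1, and it is not by itself a site.

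Car2, a carbonic anhydrase among the abundant genes that were lower, was 34.1 to 66.2 CPM with a median of 51 against 212, 470.0 and 411 CPM (log2 fold change -2.83 ± 0.21 SE, adjusted p = 1.73e-07). Ldhb, a lactate dehydrogenase, was 56.5 to 99.3 CPM with a median of 70.2 against 336, 383 and 252 CPM (log2 fold change -2.16 ± 0.15 SE, adjusted p = 1.08e-07). Ctsl, a lysosomal protease, fell by 1.45, and more against the unnumbered library (-2.4) than against libraries 1 and 2 (-0.55); without the unnumbered library its log2 fold change was -0.55. Abundant genes more than 2-fold higher included the chaperone Hsp90aa1 at 7299 to 8116 CPM with a median of 7667 against 3397, 2578 and 2585 CPM (log2 fold change 1.43 ± 0.08 SE, adjusted p = 1.85e-08). The small chaperone Hspb1 was 624 to 819 CPM with a median of 772 against 279, 353 and 387 CPM (log2 fold change 1.12 ± 0.12 SE, adjusted p = 3.62e-06). The histone variant H2afz (1.19), the actin binder Tmsb10 (1.34) and the superoxide dismutase Sod1 (1.02) were in the same group. Heat shock genes were higher in 9 of 15 tested and lower in 2, which were the stress-induced copies Hspa1a (-0.70) and Hspa1b (-0.57). These copies are near-identical, so their reads are uncertain, and neither passed without the unnumbered library (adjusted p = 0.0594 and 0.0583). The heat shock element GAANNTTC was found in 10 of 16 windows of listed genes (62.5%) and in 7.86% of all windows. Hspb1 (chr5:135887669-135887968, plus strand) holds 2, in capitals.
Hspb1: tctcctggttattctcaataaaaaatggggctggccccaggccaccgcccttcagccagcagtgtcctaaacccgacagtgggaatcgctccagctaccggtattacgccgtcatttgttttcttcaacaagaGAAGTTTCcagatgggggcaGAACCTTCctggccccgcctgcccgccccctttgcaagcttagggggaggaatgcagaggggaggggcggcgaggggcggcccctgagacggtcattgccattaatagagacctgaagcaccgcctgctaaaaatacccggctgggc

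Genes of protein synthesis and of nucleotide synthesis were mostly higher in the lines, by small amounts. Cytosolic ribosomal protein genes were higher in 50 of 84 tested and lower in 0 (median 0.32); without the unnumbered library 37 were higher and 2 lower. Translation initiation factors were higher in 35 of 52, proteasome subunits in 25 of 36 and subunits of the chaperonin CCT, which folds actin and tubulin, in 9 of 9, with 5, 0 and 0 lower. With library totals in place of the scaling factors, 34 ribosomal protein genes were higher and 3 lower, and 25 initiation factors, 15 proteasome subunits and all 9 CCT subunits were higher. Enzymes that build purines, pyrimidines and folates were higher in 18 of 22 and lower in 1 (median 0.47). Rrm2, the regulatory chain of the enzyme that makes deoxynucleotides, was 395 to 459 CPM with a median of 435 against 169.9, 196 and 209 CPM (log2 fold change 1.16 ± 0.08 SE, adjusted p = 6.75e-08), and Umps, of pyrimidine synthesis, rose by 0.91. Atic, which uses the phosphorylated form of AICAR as its natural substrate, was 319.8 to 379 CPM with a median of 362 against 212, 226 and 217 CPM (log2 fold change 0.71 ± 0.07 SE, adjusted p = 1.24e-06). Of 17 genes of nucleoside uptake and salvage, 10 were higher and 5 lower, the latter (29.4%) near the share over all genes (30.3%). The surface nucleotidase Nt5e was 19.4 to 41.7 CPM with a median of 28.6 against 3.2, 1.33 and 3.54 CPM (log2 fold change 3.5 ± 0.30 SE, adjusted p = 5.14e-07), and adenosine kinase Adk, which phosphorylates AICAR, did not pass (-0.04).

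DNA replication genes were higher in 16 of 27 tested and lower in 1 (11 and 4 with library totals), with the primase subunit Prim2 at 0.85 and the polymerase alpha subunit Pola1 at 0.88 ± 0.10 SE (adjusted p = 8.7e-06). TTTNNCGC, a form of the E2F site, was found on either strand in 11 of 24 windows of the list (45.8%) and in 5.17% of all windows, and that of Pola1 (chrX:93632106-93632405, minus strand) is shown with its match in capitals.
Pola1: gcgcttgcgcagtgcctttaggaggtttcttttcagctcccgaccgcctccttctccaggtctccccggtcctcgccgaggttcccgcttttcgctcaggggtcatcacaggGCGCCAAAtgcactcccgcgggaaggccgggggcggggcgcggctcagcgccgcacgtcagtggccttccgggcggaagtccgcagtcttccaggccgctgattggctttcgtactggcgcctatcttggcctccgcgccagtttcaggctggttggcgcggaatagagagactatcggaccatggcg
Of the cyclin genes of the entry into replication, Ccnd2 was 0.291 to 0.721 CPM with a median of 0.456 in the lines against 13.4, 28.1 and 27.4 CPM (log2 fold change -5.53 ± 0.25 SE, adjusted p = 2.09e-09), while Ccnd3 (1.05), its kinase Cdk6 (1.49), Ccne1 (1.14), Ccne2 (1.19) and the kinase Cdk2 (1.05) were higher. The inhibitor Cdkn1b was 16.7 to 20.2 CPM with a median of 18 against 59.6, 67.9 and 47.5 CPM (log2 fold change -1.68 ± 0.10 SE, adjusted p = 2.53e-08), and Mycn fell by 1.52. In the list, 9 of 23 were higher and 8 lower, near the shares over all genes. Targets of p53 were lower in 11 of 18 and higher in 2, among them the apoptosis inducer Bbc3 (-1.24). Against the unnumbered library alone only 3 of these passed as lower.

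Genes of fat metabolism moved both ways. Fatty acid oxidation genes were higher in 11 of 17 tested and lower in 3 (median 0.57). The dehydrogenase Acadm was 184 to 213 CPM with a median of 202 against 66.1, 75.3 and 71.3 CPM (log2 fold change 1.5 ± 0.07 SE, adjusted p = 3.36e-09), the peroxisomal enzyme Ehhadh rose by 2.82 and the carnitine carrier Slc25a20 by 1.74. Acadl was lower (-1.4), as was Pdk4, which spares glucose (-2.54). Sterol synthesis genes were lower in 11 of 23 tested and higher in 2 (median -0.26; 5 lower without the unnumbered library). The desaturases Fads1 and Fads2 were 23.4 to 34.6 CPM with a median of 28.6 against 93.2, 75.8 and 66.3 CPM and 25.7 to 42.8 CPM with a median of 33.1 against 113, 92 and 87.7 CPM, falls of 1.46 and 1.53 on the log2 scale. Glycolysis genes gave a median of -0.43 against the unnumbered library and 0.54 against libraries 1 and 2, and no direction is given for that list.

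The AMPK subunits and upstream kinases had 0 of 12 higher and 3 lower. Both shares were below those over all genes (27.6% higher and 30.3% lower). Against the unnumbered library alone 1 was higher and 5 were lower, and 5 were lower with library totals. Prkaa1, a catalytic subunit, was 31.1 to 36.9 CPM with a median of 35.4 against 41.3, 43.8 and 46 CPM (log2 fold change -0.33 ± 0.07 SE, adjusted p = 0.0014), not passing against the unnumbered library alone (adjusted p = 0.086), and the upstream kinase Stk11 (LKB1) fell by 0.28. Tfeb, a master factor of lysosome and autophagy genes, was 57.5 to 70.5 CPM with a median of 65.8 against 14.3, 12.3 and 9.69 CPM (log2 fold change 2.43 ± 0.12 SE, adjusted p = 3.59e-09), and its relative Mitf rose by 1.72. Tfec, the third relative, had 0 reads in the 8 lines and was at 5.95, 1.56 and 1.64 CPM in the AICAR libraries. The autophagy kinase Ulk1 (0.84) and the lipid transfer protein Atg2a (1.35) were higher. The lysosomal list had 8 of 28 higher (28.6%, near the share over all genes) and 11 lower (39.3%). Its median was -0.52 against the unnumbered library and 0.13 against the other 2. Without library 2 only 2 were higher.

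Vim, the intermediate filament of mesenchymal cells, was 537 to 645 CPM with a median of 614 against 209.6, 174 and 148 CPM (log2 fold change 1.78 ± 0.10 SE, adjusted p = 1.85e-08). The adhesion genes Epcam (-1.72) and Cdh2 (-1.73) and the epithelial regulators Grhl2 (-2.44) and Esrp1 (-2.66) were lower. In their list, of cadherins and of epithelial and mesenchymal factors, 4 of 16 tested were higher and 8 lower (median -0.82). Against the unnumbered library alone 1 was higher and 10 were lower. Vim was the 1 higher gene of 9 tested in the mesoderm and mesenchyme list, with 2 lower. A shift between epithelial and mesenchymal states was not tested. Of 23 matrix metalloproteases listed, the 6 with enough reads to test were lower. Sox factors were lower in 9 of 11 tested and Fox factors in 14 of 22, with 2 and 4 higher. Potassium channel genes were lower in 12 of 22 tested (92 listed) and calcium channel genes in 7 of 9 (26 listed), with 1 and 1 higher. With at least 10 CPM in 3 libraries 4 and 2 were lower, and with no filter 26 and 13. These counts thus depend on the read minimum. The 327 zinc finger genes named Zfp that could be tested had 123 lower (37.6%) and 53 higher (16.2%), against 30.3% and 27.6% over all genes. Their median log2 fold change was -0.23 over all 3 AICAR libraries. Against the unnumbered library alone it was -0.12, and -0.01 for all genes. Within the sequencing project of the lines no direction is given for this family. Genes of the circadian clock were lower in 8 of 13, among them Bhlhe41 (-3.36), Tef (-1.21) and Nr1d2 (-1.23), and Arntl passed as higher (0.39, adjusted p = 0.0247) but not without library 1 (adjusted p = 0.14), against the unnumbered library (adjusted p = 0.143), with library totals (adjusted p = 0.161) or with a minimum of 10 CPM in 3 libraries (adjusted p = 0.0518). Of innate immune genes, the RNA sensor Ddx58 was 73.9 to 121 CPM with a median of 99.7 against 16.7, 16 and 21.9 CPM (log2 fold change 2.46 ± 0.16 SE, adjusted p = 4.46e-08), and the peptide transporter Tap1 was lower (-2.12). The drug transporter genes Abcb1a and Abcb1b rose by 2.87 and 1.88, and the sterol exporter Abcg1 fell by 4.68.

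**Figure D4:**
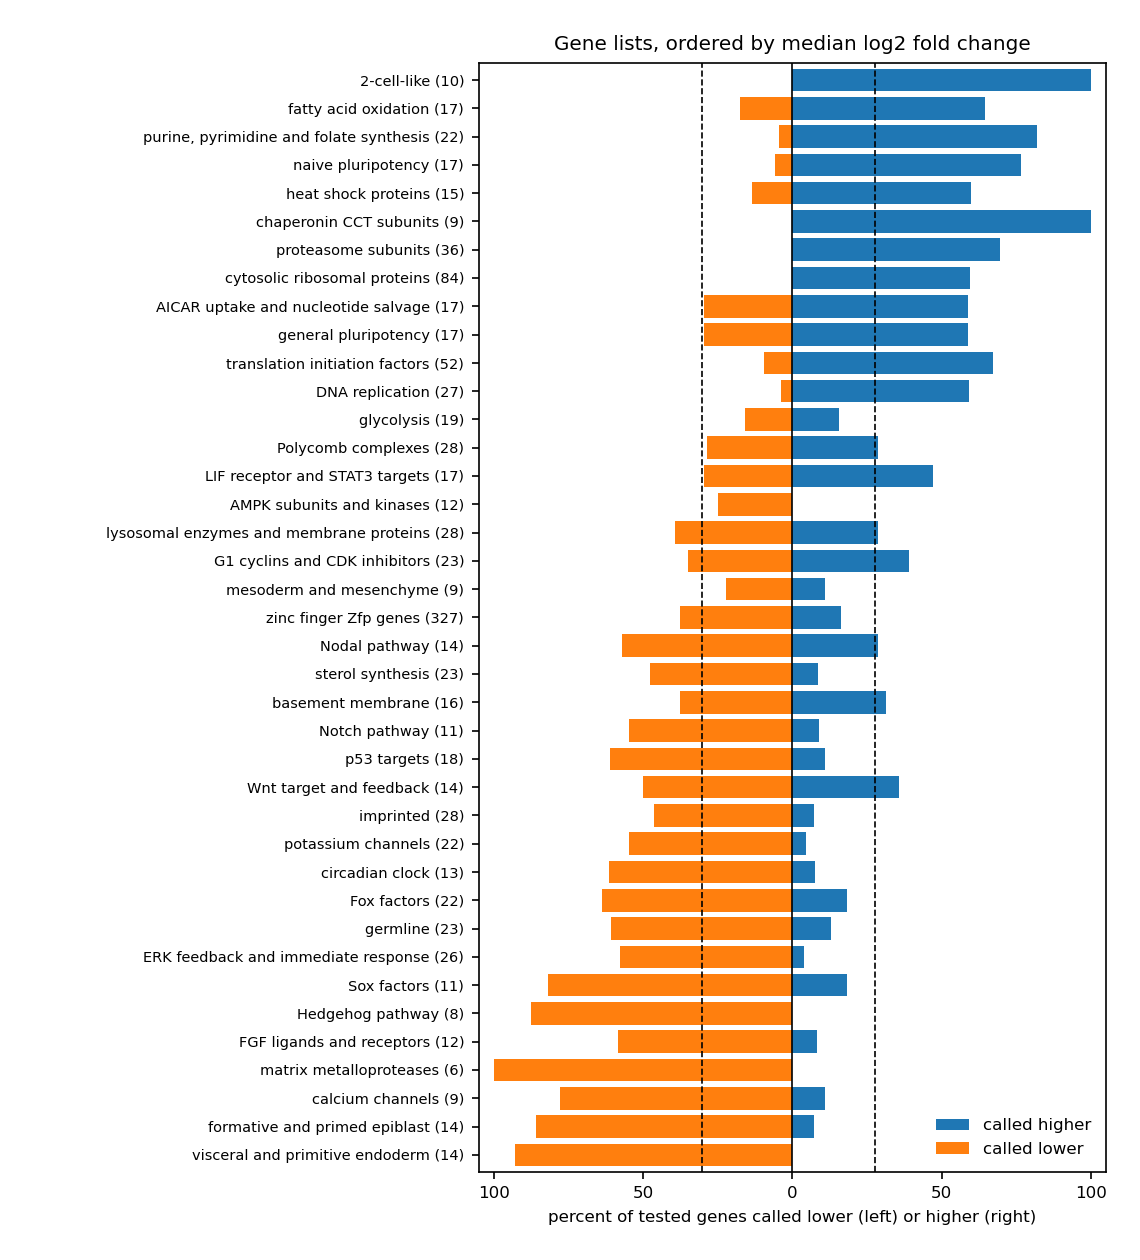
Share of tested genes called higher (right) and lower (left) in colony lines for lists described here, in percent, with the number tested beside each name. The dashed lines mark the shares over all genes, 27.6% higher and 30.3% lower; all 9 tested CCT subunits were higher. Members near 0 in 1 group passed the read minimum through the other group, so the bars of lists such as 2-cell-like, epiblast and endoderm are descriptions only.

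The colony lines were not alike in every respect. The chi-square per degree of freedom between the counts of 2 lines was 1.96 to 6.34 among lines 3, 6, 9 and 10. Among lines 1, 4 and 5 it was 2.90 to 4.09, and across these groups 8.31 to 14.96. Line 7 was at 7.30 or more from every other line. The test takes each line as 1 independent replicate. The 8 genes named for varying most among the lines fell into 2 sets. The first is Y-linked. Ddx3y, a helicase gene of the Y chromosome, was 68.2 to 116 CPM in 7 lines and had 0 reads in line 7, and it stood at 46.2, 16.3 and 26.3 CPM in the AICAR libraries. Uty was likewise at 0 in line 7 and at 29 to 64.6 CPM in the other lines, and Eif2s3y was at 0.508 CPM in line 7 and at least 65.8 elsewhere. Over all lines, the difference from AICAR cells did not pass for these genes (adjusted p = 0.0845, 0.0888 and 0.367). Without line 7 it passed for all 3, with log2 fold changes of 1.61, 1.57 and 0.86 (adjusted p = 0.000135, 0.000891 and 0.00749), and each AICAR library was below the median of the lines.

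Line 7 stood apart on chromosome 8 as well. The 496 genes that RefSeq places there, with a mean of at least 10 CPM, had a median log2 ratio to the mean of the other lines of -0.54 in line 7, against 0.04 to 0.08 in the other 7 lines. Line 7 was the lowest of the 8 lines for 442 of these 496 genes (89.1%) and for 1264 of 7803 genes on other chromosomes (16.2%). The remaining 159 medians of lines by chromosome, Y left out, lay between -0.06 and 0.08. Of the AICAR libraries, set against the mean of the 8 lines, the unnumbered library was at -0.25 on chromosome 8 and 0.22 on chromosome 19, and library 2 was at -0.29 on chromosome 6. Their other 57 medians lay between -0.20 and 0.05. Across the comparison itself, chromosome 1 had 40.2% of its 656 tested genes lower and 22.6% higher, chromosome 19 37.4% lower and 19.8% higher of 414, and chromosome 4 34.9% higher and 25.2% lower of 802. Mt1 and Mt2 lie on chromosome 8; in line 7 they stood at 34.4 and 51.5 CPM, Mt1 lowest of the lines, both far below the AICAR libraries. Zfp42 lies there too, and line 7 had the lowest level at 360.0 CPM, the next line being at 543. What these chromosome-wide values stem from was not tested.

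**Figure D5:**
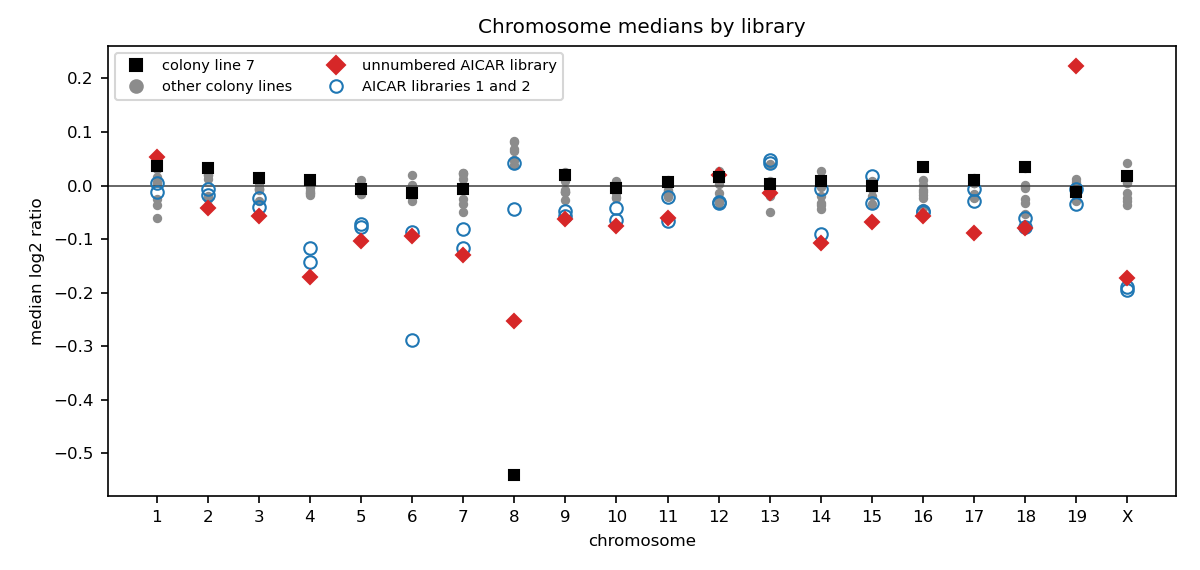
Median log2 ratio of the genes of each chromosome in each library, to the mean of the other 7 lines for colony lines and to the mean of the 8 lines for AICAR libraries, with chromosomes on the horizontal axis and Y left out. The black square of line 7 on chromosome 8 at -0.54 lies apart from all other lines, and the diamond (unnumbered AICAR library) is low on 8 and high on 19.

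The second set is of matrix and smooth muscle genes in lines 1, 4 and 5. Acta2, smooth muscle actin, was at 88.7, 54.9 and 9.89 CPM in lines 5, 4 and 1 and at most 2.37 in the other 5. Col1a1 was highest in line 4 (75.1 CPM), and Tagln and Col4a2 in line 5 (49.8 and 341 CPM). In the AICAR libraries Acta2 was at 46.9, 10.5 and 7.07 CPM and Col1a1 at 40.4, 0.222 and 0.721 CPM, and neither gene separated the groups (adjusted p = 0.975 and 0.947). Summed over 14 cardiac and smooth muscle genes, lines ranged from 10.4 to 162 CPM and the AICAR libraries stood at 80.8, 17.8 and 14.7 CPM. Mesoderm and mesenchyme genes summed to 596 to 804 CPM in the lines and 379, 219 and 208 CPM in the AICAR libraries, of which Vim alone made up 537 to 645 CPM with a median of 614 and 209.6, 174 and 148 CPM. Of 9 tested 1 was higher and 2 were lower (median -0.19), and Twist2 had 0 reads in all. Trophoblast genes summed to 24 to 46.8 CPM in the lines against 35.5, 0.815 and 3.67 CPM, and neural genes to 109 to 174 against 161, 164 and 184. The part of such cells in the other results was not tested. The unnumbered AICAR library exceeded libraries 1 and 2 most, by 4.87 to 6.34 on the log2 scale, in Col1a1, Loxl2, Col1a2, Slco2a1, Tinagl1, Krt18, Anxa2 and Krt8. Of these, Loxl2 (adjusted p = 0.00165), Krt8 (0.00158) and Anxa2 (0.000868) passed at p under 0.01 and Col1a1 did not pass (0.115). Krt8, a keratin of simple epithelia, was 175, 3.78 and 7.99 CPM in the AICAR libraries and 8.14 to 43.1 CPM with a median of 12.9 in the lines. It was therefore lower in the lines against the unnumbered library (-3.27, adjusted p = 0.000184) and had a log2 fold change of 1.6 against libraries 1 and 2 (adjusted p = 0.0334).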

How the data were processed

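RNA from all 19 libraries was sequenced from stranded mRNA kits, and the report uses 11. Per the submitters' processing notes, reads were handled with bcl2fastq, CASAVA 1.8.2, Trimmomatic 0.3.3, Bowtie2 2.2.5 and TopHat2 2.0.14 on mm9. Per the file headers, the authors then counted uniquely mapped reads with rpkmforgenes on RefSeq genes without their 3′ UTRs, with no strand option, and the deposited files hold these read counts and RPKM values. The deposited RPKM served only to compare levels between genes. Counts were fitted with edgeR 4.0.16 (TMM scaling, filterByExpr, quasi-likelihood F test, Benjamini-Hochberg adjustment over 12225 genes; R 4.3.3, limma 3.58.1 voom and DESeq2 1.42.0 as alternatives). The main comparison was fitted with 2 groups; the contrasts with the unnumbered library and with libraries 1 and 2 came from a fit with 3 groups, in which the lone library is assumed to vary like the others. CPM values are TMM-scaled counts. The fit was tested on simulated data.

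The members and gene lists were chosen with earlier results of these data known. Genes were named by fold (12 in each direction), level (8), list, variation (8) and a fixed set of pluripotency genes. Fold and level genes had to pass, to separate the groups without overlap and to have the same sign against the unnumbered library. Their lack of overlap is thus a condition of the choice and not a result. List genes were up to 4 by adjusted p, plus ligands, receptors and feedback genes. Other named genes, the chromosome medians and the shown promoter windows were chosen after values or matches were seen. For the windows, 11 pairs of list and motif were searched. Promoters are RefSeq windows of GRCm38.p6, a later build than the mm9 counts, so only their names were joined. Counting ignored strand, so overlapping and antisense genes are uncertain, as are near-identical copies and the 974 entries that join several names. The labels do not state that the AICAR libraries were separate cultures, so the scatter among them may be technical. The p-values rest on scatter fitted over both groups together, with 9 residual degrees of freedom, most of them from the 8 lines. The AICAR libraries differed more from each other. The chi-square per degree of freedom was 51.05 and 47.66 between the unnumbered library and libraries 1 and 2, and 10.49 between those 2. A few genes that the naming rule selects are not reported here.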

Additional observations from a re-analysis of the deposited data

Results flagged for a closer look

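The 8 colony lines were checked on 194 values, 1 per named gene and the medians of chromosomes 8 and Y. In 28 (14.4%), 1 line stood apart by the gap between it and its nearest neighbour. Some genes were named for varying among the lines, and the medians were chosen after values were seen. Some values are near 0 CPM or move together. The rate of about 1 in 20 for independent normal values is therefore no yardstick here. Line 7 was the line apart in 11 of the 28. Its median over chromosome 8 was -0.54 and over chromosome Y -6.60 on the log2 scale, Ddx3y was at 0 CPM and Eif2s3y at 0.508 CPM. In line 7, Zfp42 (360.0 CPM) and Adk (34.1 CPM) were low, and Dazl (21 CPM), Fgf5 (1.36 CPM), Jak1 (76.8 CPM), Magel2 (1.02 CPM) and Ulk1 (229 CPM) were high. RefSeq places Zfp42 on chromosome 8 and the other 6 of these genes on other chromosomes than 8 and Y.

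Line 5 stood apart, always as the highest, in Col4a1 (677 CPM), Col4a2 (341 CPM), Lama1 (279 CPM), Lamb1 (133 CPM), Tinagl1 (25.2 CPM), Slco2a1 (8.22 CPM), Sox17 (4.62 CPM), Gata6 (4.47 CPM) and Gata4 (3.90 CPM), all of them basement membrane, matrix or endoderm genes or genes that were high in the unnumbered AICAR library. Line 4 was highest in Col1a1 (75.1 CPM), Col1a2 (40.2 CPM) and the joined H19 and Mir675 entry (42.7 CPM) and lowest in Gli1 (5.48 CPM). Line 1 was highest in Cubn (2.58 CPM) and lowest in Hspa1b (7.31 CPM), line 3 highest in Nkd2 (0.999 CPM) and line 9 lowest in Spry2 (93.6 CPM). Cubn in line 1 remained far below the AICAR libraries (91.5 CPM or more).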

How the results depend on the processing

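No paired analysis was possible because colony lines and AICAR libraries share only the number 1 in the labels. Of 192 named genes under 9 other settings, 1648 of 1687 values kept their direction and their side of the threshold. Of 702 counts of list members called, 636 stayed within 1.5 times. With at least 10 CPM in 3 libraries, where 8777 genes were tested, several counts of lower members shrank. They were then 4 for Sox, 9 for Fox, 4 for clock and 3 for metalloprotease genes. For extraembryonic endoderm genes the count was 4, for imprinted genes 7 and for Wnt genes 3. The genes called beyond 2-fold were 436 higher and 624 lower with at least 10 CPM in 3 libraries, 462 and 837 when the test itself was against a fold change of 2, 2644 lower with no filter and 2361 lower with all 19 libraries in 1 fit, and 1651 genes were higher than in the unnumbered library with library totals only. Library totals moved the share of called genes that were higher from 47.6% to 32.6%. Reversals were in genes that did not pass over all 3 AICAR libraries. With limma voom they were Anxa2 (1.47), Col1a1 (1.19), Col1a2 (0.27), Krt8 (0.089), Loxl2 (0.15) and Tinagl1 (0.71); with library totals Etv4 (-0.037), Hnf4a (-0.13) and Zfp42 (-0.14, and -0.047 with at least 10 CPM); with project as a term Fgfr1 (0.36, and 0.013 with no filter), Hnf4a (-0.77), Nodal (0.41) and Tet2 (0.58); and with all 19 libraries Acta2 (0.00). The cause was not tested. Leaving out 1 library at a time gave 3011 to 3440 genes higher and 3419 to 3700 lower, and 805 to 1019 and 1542 to 1654 beyond 2-fold. The log2 fold change ranged over these from -0.99 to 1.22 for Acta2, -0.091 to 0.024 for Adk, -1.20 to 2.74 for Anxa2, -2.07 to 4.61 for Col1a1, -2.05 to 3.33 for Col1a2, -0.17 to 0.20 for Fgfr1, -0.25 to 0.62 for Hnf4a, -2.77 to 1.31 for Krt18, -2.31 to 1.61 for Krt8, -2.79 to 2.06 for Loxl2, -0.34 to 0.12 for Nodal, -2.90 to 1.56 for Slco2a1, -0.096 to 0.011 for Spred1, -2.22 to 2.13 for Tinagl1 and -0.14 to 0.14 for Zfp42. For Acta2, Anxa2, Col1a1, Col1a2, Krt18, Krt8, Loxl2, Slco2a1 and Tinagl1 the highest value was that without the unnumbered library. Colony lines had 5937370 to 7370560 reads, so a gene with 0 reads in all 8 lines may still be expressed below the floor of 3 reads.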
